A study of Chromochloris zofingiensis with 6 samples.

Results

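Among the nuclear genes of the green microalga Chromochloris zofingiensis, 150 gene IDs combined many reads with steady values across untreated and levofloxacin-treated cultures. They were chosen by a rule on the counts. Of 13919 IDs with the prefixes Cz01g to Cz16g and Cz19g, 4558 had a highest CPM (counts per 1e6 assigned reads) under 1.5 times the lowest over the 6 libraries. The 150 of these with the highest mean CPM are the members. The whole count table holds 15364 IDs. Cultures of strain ATCC 30412 were kept in darkness at 25 °C and 150 rpm on 30 g/L glucose, in the medium CZ-M1. The 3 control samples came from cultures without levofloxacin and the 3 treated samples from cultures with 10 mg/L of it, and RNA of both was taken at 15 days. The labels number the samples of each group and do not say whether these are separate cultures, so the spread between them may be in part technical.

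In eukaryotic cells a small part of the genes gives a large part of the messenger RNA. Messages for ribosomal proteins, translation factors, chaperones and enzymes of central carbon metabolism are usually among the abundant ones. Transcripts that are abundant and change little are the usual candidates for reference genes, against which other transcripts are scaled, and count scalings such as TMM assume that most genes do not change. C. zofingiensis can grow on glucose without light and is known for storing lipid and the red pigment astaxanthin. Levofloxacin is a fluoroquinolone, which acts on bacterial DNA gyrase and topoisomerase IV. The files give IDs without names or descriptions, so no role can be stated for any of these genes. The start of each ID is read as a chromosome, which the files do not state, and ID order as gene order.

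Assigned reads ranged from 28482776 to 36223195 per library. Control replicate 1 stood apart from the rest. It held the lowest or the highest CPM of an ID in 60.9% of the 12590 nuclear IDs that averaged 1 CPM or more. Its TMM factor was 0.912, where the other libraries lay between 0.988 and 1.06. Its chloroplast IDs (prefix CzCPg) took 111 reads in 1e6 assigned reads, against 15.0 to 60.4 in the other libraries. Mitochondrial IDs (CzMTg) took 226 to 375 in 1e6, with overlapping groups. Pairs of replicates differed by more than counting noise (chi-square per degree of freedom 9.65 to 198 across IDs), so none was taken as a library deposited again. The spread, the overlap of the groups, the calls and the list itself are given with and without control replicate 1.

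The members took an almost constant share of the reads. The rule favours this by holding the ratio of each ID under 1.5, but it does not fix the sum. In replicates 1, 2 and 3 the share of assigned reads was 11.6%, 11.5% and 11.9% without levofloxacin and 11.7%, 11.9% and 11.6% with it. The Wilson 95% half-width of each share was at most 0.0118 percentage points. The mean was 11.67 ± 0.22% (SD, n = 3) in controls and 11.70 ± 0.15% with levofloxacin. Another 199 nuclear IDs had at least the lowest member's mean of 409 CPM and missed the limit on the ratio. These more variable IDs took 23.4%, 18.5% and 20.4% in control replicates 1, 2 and 3 and 18.7 to 19.3% in the levofloxacin libraries. Thus 43.0% of the 349 abundant nuclear IDs were members. The share of IDs under the ratio limit was 50.8% at 100 to 409 CPM, 40.8% at 10 to 100 CPM, 17.2% at 1 to 10 CPM and 0.677% below 1 CPM, where counts are low.

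**Figure D1:**
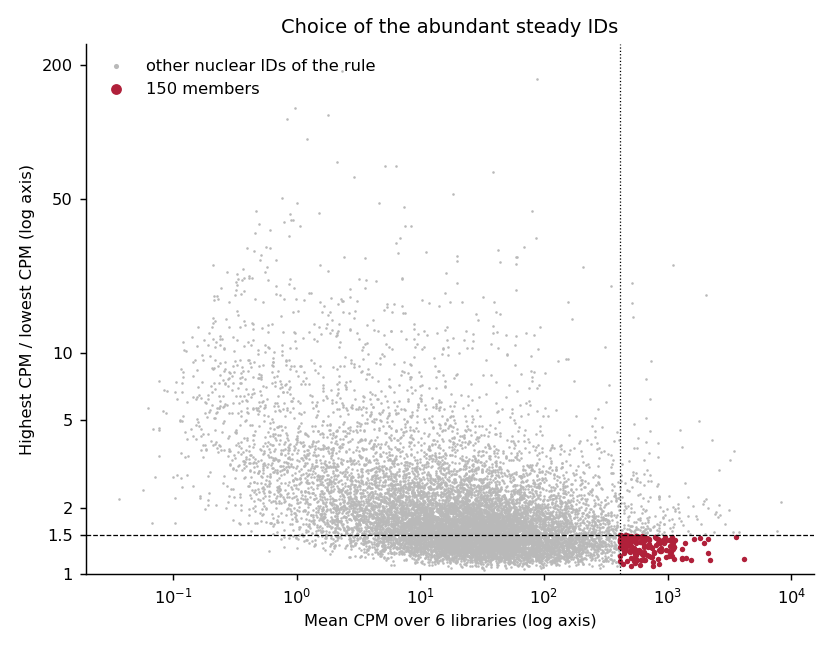
Mean CPM over 6 libraries (log axis) against the ratio of highest to lowest CPM (log axis) for nuclear IDs of the rule; 561 IDs with 0 counts in a library have no ratio and are not drawn. The 150 members (red) lie under the dashed line at 1.5 and right of the dotted line at 409 CPM, and 199 IDs lie above them at the same abundance.

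The limits of the rule cut through a continuous range. Just inside the limit on the ratio were Cz13g11290 (1.497) and Cz04g08060 (1.497), and just outside were Cz19g00270 (1.501) and Cz03g08070 (1.510). By rank, the last members were Cz10g26090 with 409.7 and Cz13g11290 with 409.2 CPM, and the next steady IDs were Cz08g29170 with 408.9 and Cz03g13130 with 408.9 CPM. The median ratio of the members was 1.34, with quartiles of 1.24 and 1.43, so most lay nearer to the limit than to a constant value. A ratio under 1.2 was found in 27 members and one under 1.1 in 3. These ratios hold for library totals: on TMM-scaled library sizes 29 members lay past the limit, with a highest ratio of 1.73.

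Cz13g06290 drew the most reads of all members and ranked 3 among all nuclear IDs of the rule. Its reads came to 3989, 4049.8 and 4674 CPM in the controls and 4042, 4301 and 3994 CPM with levofloxacin, each in the order of replicates 1 to 3, as below. Control replicate 3 was the highest library, and the other controls lay within or just under the range of the levofloxacin libraries. Over the groups this was 4237 ± 379 CPM (SD, n = 3) in controls and 4112 ± 165 CPM with levofloxacin. Its coding length, recovered from counts and FPKM, was 1824 bases.

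The next member by reads, Cz05g02110, was less even. It had 2915, 3034 and 3312 CPM in the controls and 3748, 4241 and 4269.96 CPM with levofloxacin. Every levofloxacin library lay above every control, and the ratio of highest to lowest was 1.46. The fold change from edgeR (log2 scale, TMM) was 0.36 ± 0.14 (SE), which was not called. In Cz10g01050 the order of the groups was the opposite, with 2323, 2252 and 2398 CPM in the controls and 2177, 2102 and 2065 CPM with levofloxacin. The groups did not overlap there, and the log2 difference was -0.19 ± 0.13 (SE), not called.

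In several members with many reads the controls spread more widely than the levofloxacin libraries. Cz06g09090 had 2336, 1595 and 2213 CPM in the controls against 1655, 1624 and 1643 CPM with levofloxacin. The coefficient of variation (CV, SD over mean) was 19.4% among its controls and 0.951% among its levofloxacin libraries, and control replicate 2 lay below all of the latter. In Cz16g01180 the controls stood at 1636, 2262 and 1987 CPM and the levofloxacin libraries at 1932, 2124 and 1877 CPM, so that control replicate 1 was the lowest and control replicate 2 the highest. In Cz08g07250 the controls had 2595, 2079.97 and 2382 CPM and the levofloxacin libraries 1839, 2081 and 1808 CPM; only control replicate 2 and levofloxacin replicate 2 met.

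Among the other members of the 10 with the most reads, Cz07g06260 varied more with levofloxacin than without. It had 1405, 1603 and 1616 CPM in the controls and 1595, 2029 and 1652 CPM with levofloxacin, the highest value being that of levofloxacin replicate 2. Cz02g08220 had 2128, 2048 and 2393 CPM in the controls and 1928, 2272 and 1960.0 CPM with levofloxacin. The groups overlapped in both. Cz07g24210 (1435 to 1668 CPM in controls, 1443 to 1651 CPM with levofloxacin) and Cz03g05100 (1266 to 1501 and 1353 to 1456 CPM) had overlapping groups and ratios of 1.16 and 1.19.

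**Figure D2:**
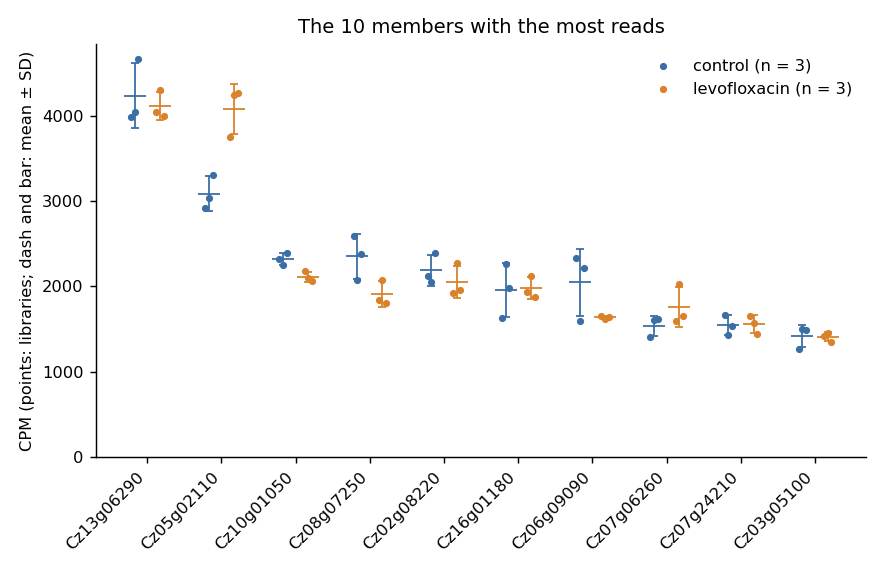
CPM (linear axis from 0) of the 10 members with the most reads, with a point for each library (blue controls, orange levofloxacin) and the mean ± SD of 3 libraries a group. The groups are apart in Cz05g02110 (levofloxacin above) and in Cz10g01050 (levofloxacin below), and overlap or meet in the others.

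CPM counts reads and so favours long genes, and levels of different genes were compared per coding length as FPKM. Coding length ran from 267 to 17529 bases among the members, with a median of 1647 bases. The median was 1389 bases in the more variable IDs of like abundance and 1071 bases in all nuclear IDs of the rule with a length. Lengths of at least 5000 bases were found in 14 members (9.33%), in 4.52% of the more variable IDs and in 2.95% of all nuclear IDs; abundance in CPM was part of the rule, so the last difference is in part built in. Lengths under 500 bases were found in 11 members (7.33%), against 9.55% and 19.8%. Across the 150 members Spearman's rho of coding length and the ratio of highest to lowest CPM was -0.03, over the narrow range of ratios that the rule allows; members are not independent replicates, and all rest on the same libraries.

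Per length, 75 of the 150 members were among the 349 nuclear IDs of the rule with the highest mean FPKM. Cz02g08220, with a coding length of 612 bases, had the highest level of the members, a mean of 3577 ± 295 FPKM without and 3355 ± 311 FPKM with levofloxacin (SD, n = 3 each). Next came Cz14g09060 (312 bases) with 3044 ± 492 and 2904 ± 288 FPKM. Over the 6 libraries the former ran from 3149 to 3909 and the latter from 2607 to 3597 FPKM, so these neighbours in the order overlapped.

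Cz07g06260 (654 bases) followed with 2356 ± 181 and 2689 ± 361 FPKM, Cz05g02110 (1440 bases) with 2144 ± 141 and 2838 ± 204 FPKM, and Cz13g06290 with 2323 ± 208 and 2254 ± 90.5 FPKM. Each of these also overlapped its neighbours in the order. The member with the longest coding sequence, Cz09g01110 (17529 bases), had the lowest level of all members per length. It had 19.9, 29.7 and 24.3 FPKM in the controls and 29.2, 28.3 and 27.7 FPKM with levofloxacin, with control replicate 1 as the lowest library. The shortest, Cz08g12070 (267 bases), had 2145, 1829.8 and 1677 FPKM in the controls and 2295, 2428 and 2193 FPKM with levofloxacin, so that every levofloxacin library lay above the controls. Its log2 fold change of 0.24 ± 0.15 (SE) was not called in edgeR.

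By the ratio of highest to lowest CPM, the steadiest member was Cz02g28150, with a coding length of 879 bases. It had 802, 799.6 and 736 CPM in the controls and 771, 753 and 746 CPM with levofloxacin, a ratio of 1.09. Cz05g14050 (2328 bases) had 514, 526 and 512 CPM in the controls and 514, 481 and 512 CPM with levofloxacin; apart from levofloxacin replicate 2, its libraries lay between 512 and 526 CPM. Both had overlapping groups. Over the 6 libraries the CV was 3.64% in Cz02g28150 and 2.94% in Cz05g14050, so the order depends on the measure.

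Cz09g14190 (5091 bases) had 575, 631 and 607 CPM in the controls and 629.96, 595 and 586 CPM with levofloxacin, and group means of 604 ± 27.9 and 604 ± 23.4 CPM (SD, n = 3 each). Cz01g15090 (465 bases) and Cz02g39080 (1971 bases) completed the 5 with the lowest ratios. The former ran from 419 to 457 CPM in the controls and from 410.0 to 453 CPM with levofloxacin. The latter ran from 818 to 912 and from 821 to 896 CPM. The coding lengths of these steadiest members ran from 465 to 5091 bases.

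The spread within a group was above counting error in nearly every member. Each member had at least 9332 counts in every library, so the counting error was small. The counting error expected from the mean count was between 0.272% and 0.873% (CV). The observed CV had a median of 8.56% among controls (quartiles 5.46 and 13.5%) and 4.28% among levofloxacin libraries (2.79 and 6.55%). It was below the counting error in 1 member among controls and in 2 members among levofloxacin libraries. The CV was higher among controls in 112 of 150 members (74.7%). The share was 74.4% in the more variable IDs of like abundance and 76.9% in all nuclear IDs of the rule. The share in the members changed most when control replicate 1 was left out, which leaves 2 controls against 3 levofloxacin libraries. A CV from fewer libraries is less certain, so the share then found is not read as equal spread. Without control replicate 1 the median CV of the members was 4.60% between the other 2 controls. The CV was then higher among controls in 74 of 150 members (49.3%) and in 51.3% of the more variable IDs. Leaving out any other library gave 99 to 128 members with a higher CV among controls.

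Single members with a wide group stood at both ends of this range. Cz02g15140 had 732, 1008 and 824 CPM in the controls and 815, 818 and 813 CPM with levofloxacin, a CV of 16.4% against 0.348%. Cz03g08060 had 392, 395 and 414 CPM in the controls and 551, 401 and 579 CPM with levofloxacin, a CV of 2.97% against 18.7%, and levofloxacin replicate 2 lay among the controls. The ID next to it in the ID order, Cz03g08070, missed the limit with a ratio of 1.51. It had 737, 664 and 694 CPM in the controls and 1003, 688 and 982 CPM with levofloxacin, so that levofloxacin replicate 2 again lay among the controls and below the other treated libraries. These IDs were picked after their values were seen.

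**Figure D3:**
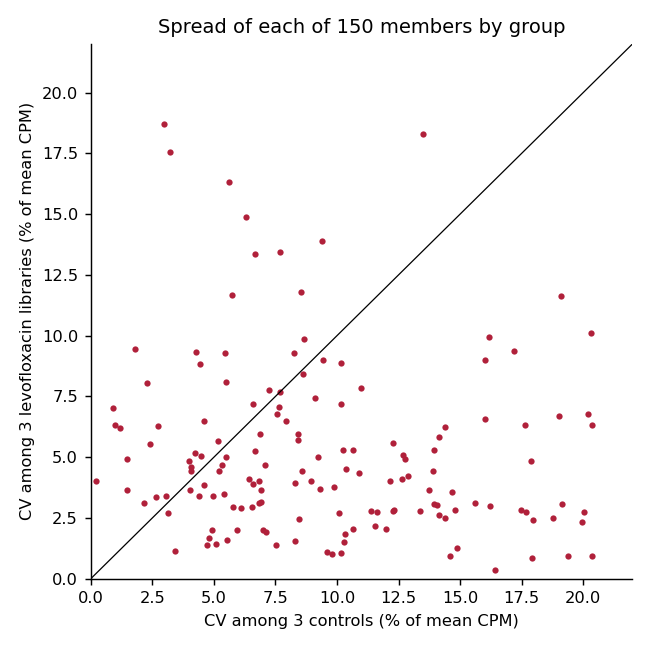
CV of CPM among 3 controls (x axis, %) against the CV among 3 levofloxacin libraries (y axis, %) for each of the 150 members, with the line of equal spread. Points below the line, 112 of 150, varied more among controls. Without control replicate 1 they numbered 74, with fewer controls than levofloxacin libraries.

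Control replicate 1 was the library at the end of the range most often. It held the lowest CPM of 49 members and the highest of 38, so it was an extreme in 58.0% of them. The share was 64.3% in the 199 more variable IDs and 60.9% in the 12590 nuclear IDs that averaged 1 CPM or more. Of the latter it held the lowest CPM in 5385 and the highest in 2278. Levofloxacin replicate 1 was an extreme in 10.7% of the members, against 17.6% and 22.1% in those sets. The remaining libraries were an extreme in 26.0 to 40.0% of the members. Without control replicate 1, the median ratio of highest to lowest CPM over the other 5 libraries was 1.27. Leaving out any other library gave 1.297 to 1.334. The controls were ordered replicate 1 under 3 under 2 in 32 members (21.3%), in 22.1% of the 199 more variable IDs of like abundance and in 39.7% of the 12590 nuclear IDs that averaged 1 CPM or more. The reverse order was found in 35 members (23.3%), 36.7% and 13.1%.

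The comparison of levofloxacin with control used the same libraries as the rule, so the members' values in it are a description only. The edgeR fit over 14236 IDs called 22.1% of them at an adjusted p under 0.05, 10.1% higher and 12.1% lower with levofloxacin. All 150 members passed the filter on low counts, and 10 of them (6.67%) were called, 3 higher and 7 lower. Of the 199 more variable IDs, 69 (34.7%) were called. The rule limits the size of a difference, so nothing is read from these shares. The log2 fold changes of the members lay between -0.55 and 0.39, with a median of -0.06 and a median size of 0.17. Over all tested IDs the median was 0.00097 and the median size 0.30. The SE of a member's log2 fold change had a median of 0.13 and a range of 0.10 to 0.20.

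The split of the calls into higher and lower differed between scalings. RLE scaling gave 2 higher and 6 lower. With library totals alone, the scale on which the members were chosen, 8 were called higher and 3 lower. With factors from the geometric mean of the members 5 were called higher and 5 lower. The median log2 fold change of all tested IDs was 0.04 and 0.03 in the latter fits. With another test, limma-voom gave 4 higher and 7 lower, and limma on log2(FPKM + 1), which also changes the scaling, 7 and 3. Over all tested IDs, 1456 were called higher and 1716 lower with RLE, and 1219 and 1399 with library totals. The numbers were 1090 and 1443 with factors from the members, 1411 and 1416 in limma-voom, and 1273 and 1219 in limma on log2(FPKM + 1). The number of called members also changed with single libraries. It was 30 without control replicate 1, 18 without control replicate 2 and 1 without levofloxacin replicate 2. It was 0 in edgeR without control replicate 3, levofloxacin replicate 1 or levofloxacin replicate 3, where 15, 13 and 10 members had an unadjusted p under 0.05. Over all 14324 to 14348 tested IDs, the calls numbered 3632, 4402 and 866 in the former fits. In the fits without a called member they numbered 1171, 248 and 240. There 4785, 4231 and 3996 of all tested IDs had an unadjusted p under 0.05. The calls thus changed over all IDs as well as in the members, but not to the same extent. Without control replicate 1 they went from 10 to 30 in the members and from 3149 to 3632 over all tested IDs. Without control replicate 2 they went from 10 to 18 and from 3149 to 4402.

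The largest positive differences of the members were small and even. Cz09g00060 had 444, 442 and 435 CPM in the controls and 596, 637 and 563 CPM with levofloxacin, with no overlap; the log2 fold change was 0.39 ± 0.12 (SE). Cz02g31270 had 372, 427 and 397 CPM in the controls and 548, 549 and 519.5 CPM with levofloxacin (log2 fold change 0.39 ± 0.10). Both were called. The member next to Cz02g31270 in the ID order was also called higher. It had a similar coding length (1275 bases against 1299) and similar values, 403, 452 and 405 CPM in the controls and 567, 581 and 548 CPM with levofloxacin. Whether these neighbours share reads was not tested.

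The largest negative differences were those of Cz05g24240 and Cz08g30220, which were both called. Cz05g24240 (5730 bases) had 541, 560.3 and 564 CPM in the controls and 396, 401 and 378 CPM with levofloxacin. Its log2 fold change was -0.55 ± 0.11 (SE). Cz08g30220 (4023 bases) had 590.2, 638 and 674 CPM in the controls and 487, 451 and 476 CPM with levofloxacin, and its log2 fold change was -0.48 ± 0.11. In both, the groups did not overlap and the libraries within each group lay close together.

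The groups did not overlap in 42.6% of all 14236 tested IDs, with levofloxacin above in 22.6% and below in 20%. In the members this held for 67 (44.7%), of which 36 had every levofloxacin library above every control and 31 below. Among the more variable IDs it held for 61.3%. In the other 83 members the groups overlapped. Without control replicate 1 the groups were apart in 96 members (64.0%), where the share over all tested IDs was 55.2%; fewer libraries leave less room to overlap.

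**Figure D4:**
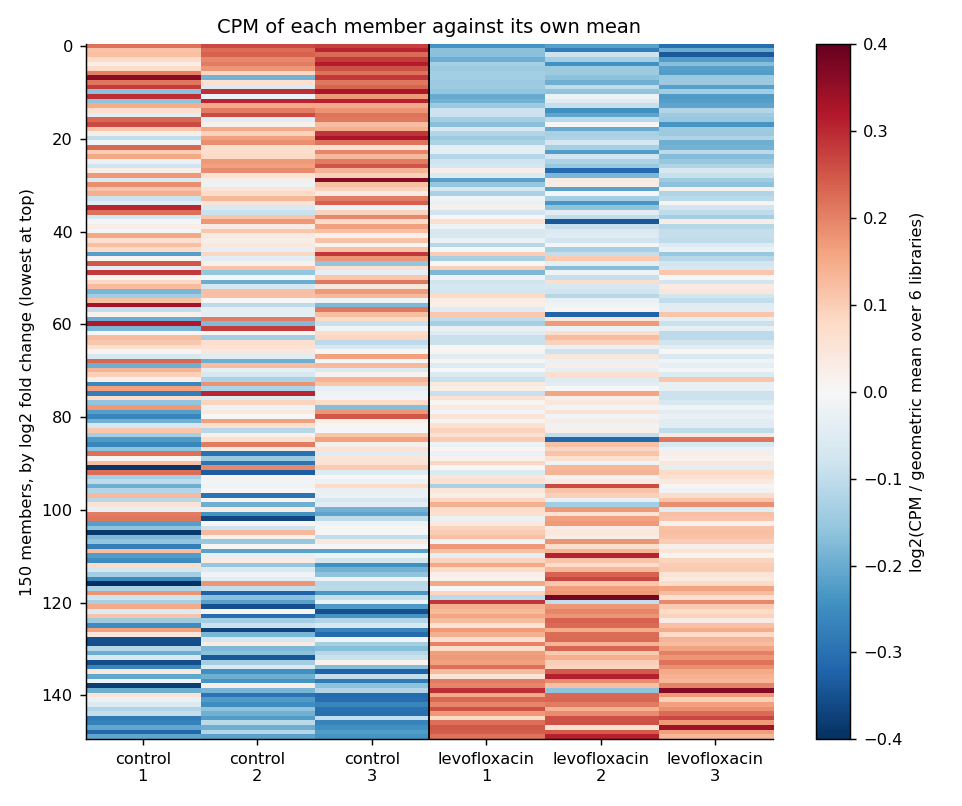
CPM of the 150 members (rows, ordered by edgeR log2 fold change, lowest at the top) in 6 libraries, as log2 of the ratio to the member's own geometric mean; colours end at 0.4 in either direction, and 1 of 900 values lies past that. The topmost rows are higher in all controls and the lowest rows in all levofloxacin libraries; 67 of the 150 have groups that do not overlap.

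A library that takes no part in the choice shows how steady such IDs are outside it. The rule was therefore applied to 5 libraries at a time and the left-out library was read. Of 150 IDs chosen without levofloxacin replicate 1, 144 kept a ratio under 1.5 when it was added, and 130 lay there within the range of the other 5 libraries. Their median distance from the mean of the other 5 was 0.11 on the log2 scale. Of 150 IDs chosen without control replicate 1, 112 kept the ratio and 46 lay within the range of the others, with a median distance of 0.22. The other left-out libraries gave 131 to 140 IDs that kept the ratio and median distances of 0.13 to 0.18. Nuclear IDs of like abundance that the choice on 5 libraries passed over had median distances of 0.27 to 0.43. In left-out control replicates 1 to 3, 49.2%, 85.1% and 82.6% of them lay within the range of the other 5 libraries, against 30.7%, 62.7% and 54.0% of the chosen IDs. The shares in left-out levofloxacin replicates 1 to 3 were 85.8%, 69.9% and 69.4%, against 86.7%, 54.0% and 69.3%. The choice itself makes the range over the other 5 narrower in the chosen IDs. The difference between libraries was not tested.

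The 38 IDs lost through control replicate 1 were higher there in 18 cases and lower in 20. They included Cz11g04220, an ID with more reads than any member. It had 10041 CPM in control replicate 1, 6839 and 7646 CPM in the other controls, and 6439.9, 7978 and 7101 CPM with levofloxacin. Cz03g11170 had 341 CPM in control replicate 1, 659 and 652 CPM in the other controls, and 666, 694 and 635 CPM with levofloxacin, so that its ratio was 1.09 over 5 libraries and 2.03 over 6. The 150 IDs chosen without control replicate 1 took 15.6% of the reads in that library. This list holds Cz11g04220 and other IDs that are not members, and its share in the other libraries was not computed. The 15.6% is therefore not read as a rise.

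Levofloxacin replicate 2 cost the list 19 IDs, among which 3 were at least 2-fold away from the mean of the other 5 libraries, all of them lower. Cz09g20070 had 847, 777 and 867 CPM in the controls, 664 and 670.1 CPM in levofloxacin replicates 1 and 3, and 218 CPM in replicate 2. Cz04g30090 had 4088, 3134 and 3978 CPM in the controls, 3331 and 3386 CPM in levofloxacin replicates 1 and 3, and 1251 CPM in replicate 2. These IDs, like those lost through control replicate 1, were picked after their values were seen.

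**Figure D5:**
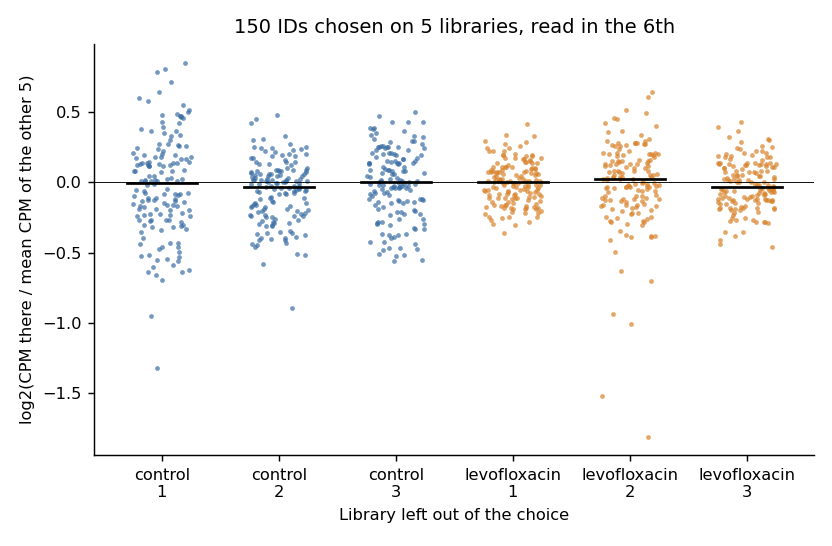
For each library left out in turn, log2 of the CPM there over the mean CPM of the other 5 libraries, with a point for each of the 150 IDs chosen on those 5 and a bar at the median. The points spread most in control replicate 1 (-1.32 to 0.85) and levofloxacin replicate 2 (-1.81 to 0.64), and least in levofloxacin replicate 1 (-0.36 to 0.41).

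The rule was also applied to a single group and the other group was read. Applied to the 3 controls alone, it chose 150 IDs, of which 142 (94.7%) also had a ratio under 1.5 among the levofloxacin libraries, where the median ratio was 1.11. The same held for 91.1% of the 349 abundant nuclear IDs and 83.3% of all nuclear IDs of the rule. Over all 6 libraries, where a ratio can only be as high or higher, 78 of the 150 kept the limit. Applied to the 3 levofloxacin libraries alone, the rule chose 150 IDs of which 124 (82.7%) kept the limit among the controls, with a median ratio of 1.28 there, and 65 over all 6. Among the controls 77.1% of the abundant IDs and 57.2% of all nuclear IDs of the rule kept it. In each of these lists the group means of 5 IDs differed by at least 2-fold. Both lists use a single group, and the shares of steady IDs were not compared by a test.

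The members came from all 17 chromosome prefixes of the rule. Cz02g and Cz09g held 17 each, Cz05g 13 and Cz06g 12, while Cz03g, Cz11g and Cz12g held 5 each and Cz19g 3. As a share of the IDs on a prefix this was 0.463% on Cz03g at the lowest and 1.93% on Cz09g at the highest. Of the abundant IDs on a prefix, 25.0% on Cz11g (5 of 20) and 66.7% on Cz15g (6 of 9) were members. With all prefixes allowed, 7 IDs of Cz17g, 2 of Cz18g and 9 of unplaced sequence (UNPLg) entered the list of 150 and no chloroplast or mitochondrial ID did.

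There were 4 pairs of adjacent members in the ID order. The 199 more variable IDs held 7 such pairs and all 349 abundant IDs held 20. Larger sets hold more adjacent pairs, so these counts do not show whether members adjoin more or less often. Besides the pair on Cz02g described above, Cz16g20280 (3594 bases, 974 CPM on average) was followed by Cz16g20290 (1860 bases, 458 CPM). Cz06g00180 (624 bases, 415 CPM) was followed by Cz06g00190 (1233 bases, 447 CPM), and Cz02g32210 (561 bases, 464 CPM) by Cz02g32220 (1392 bases, 954 CPM). The ratios of highest to lowest CPM were 1.28 and 1.32 in the pair on Cz16g, 1.15 and 1.28 in that on Cz06g, and 1.45 and 1.47 in the latter pair on Cz02g.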

How the data were processed

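RNA-seq of 3 control and 3 levofloxacin libraries was used. The deposited counts are whole reads per gene ID, and the deposited FPKM values are fragments per kilobase and 1e6 assigned reads, made by the authors. The submitters' processing notes name HISAT2 2.0.6 and HTSeq 0.6.1. Build, annotation and use of strand were not given in the sources used here. Reads of overlapping genes or near-identical copies therefore cannot be told apart. FPKM values are given for 15369 IDs and counts for 15364; the IDs without counts were not analysed here.

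CPM was each count over its library total. Coding lengths came from counts and FPKM after solving for the totals behind the FPKM values, which exceeded the count totals by 0.00942% on average. All IDs were fitted in edgeR 4.0.16 under R 4.3.3 (filterByExpr, TMM, quasi-likelihood F test between the groups, Benjamini-Hochberg adjusted p under 0.05). The SE of a log2 fold change is its size over the square root of F. The fit and the choice of IDs were tested on simulated data. Alternatives were other scalings, no filter, DESeq2 1.42.0, limma 3.58.1, the replicate number as a block, other limits of the choice and leaving out each library. Intervals of shares are Wilson 95% intervals and cover only counting error, the reads being without molecular identifiers.

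Members and descriptions were chosen with earlier results of these data known. The files do not pair IDs with gene names, so the planned lists by function could not be formed. Named are the 10 members with the most reads, the 5 steadiest, the 5 highest per length, the longest, the shortest, those at each limit and the 2 highest and 2 lowest fold changes; other IDs named were chosen after their values were seen.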

Additional observations from a re-analysis of the deposited data

How the results depend on the processing

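Fewer members were kept under other limits on the ratio than with any library left out. This is in part by construction: a stricter limit drops every member past it, and a looser one admits more abundant IDs. Of the 150 members, 121 were also chosen with TMM-scaled CPM, 79 by FPKM, 39 under a stricter limit on the ratio, 74 with a ratio under 2, 78 on the controls alone and 65 on the levofloxacin libraries alone. A list of 75 IDs held 75 of them by construction. With each library left out, 112 to 144 were kept, and the share of reads, read in the left-out library, was 11.8 to 15.6% in place of 11.7%; the lists then held other IDs. All tested IDs called numbered 3149 and stayed within 1.5 times of that under other scalings, no filter, DESeq2, limma and the block, and 240 to 4402 with each library left out. Called members numbered 10, against 27 (8 higher, 19 lower) in DESeq2, 1 with the replicate number as a block and 0 to 30 with each library left out. Over all tested IDs DESeq2 called 1929 higher and 2276 lower. The labels do not say that the numbers pair the samples: deviations of same-numbered libraries correlated at 0.16, 0.05 and 0.04 across IDs, with control replicate 2 closer to another number. Across the members alone these correlations were -0.12, -0.05 and 0.13. The causes were not tested. Members with a higher CV among controls numbered 112, and 74 to 128 with each library left out, when the groups differ in their number of libraries. Members whose groups did not overlap numbered 67, and 71 to 96 with each library left out. Fewer libraries leave less room to overlap in any ID. Over all tested IDs the share was 42.6%, and 55.2% without control replicate 1. It was not computed for the other left-out libraries. These checks of spread and overlap were chosen after seeing the data. Each group has 3 libraries, which limits the precision. For the members the counting error expected from the mean count was at most 0.873%.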
